A study of Mus musculus with 16 samples.

Results

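Hypoxia makes cells secrete proteins that call in blood vessels and adjust metabolism, and 7 genes for such factors are described here in mouse fibroblasts: Vegfa, Vegfb, Vegfc, Adm, Angptl4, Stc1 and Stc2. The members were all genes with these symbols among the 18193 genes that had a probe set of 1 symbol, and their 15 probe sets, the array features that each report 1 transcript region, were all read. Signals came from 16 arrays, 1 for each of 4 lines of primary mouse embryonic fibroblasts under each of 4 treatments. The study asked how the response to a hypoxia mimic depends on the CH1 domain of CBP and p300, a pair of related histone acetyltransferases, and on deacetylase inhibition.

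Every line came from e14.5 embryos, received an adenovirus at passage 3 that carried Cre, which cuts out DNA flanked by flox sites, and was then expanded at least 100-fold. The line flox1 carried 1 conditional CBP allele (CBP+/flox) and flox2 1 conditional p300 allele (p300 +/flox). Sample titles write flox2_2 and triCH1flox2_2 for the lines that the design text calls flox2 and triCH1flox2, the names used here. The remaining alleles of flox1 and flox2 had the CH1 domain, and these lines are called control lines here although 1 allele was lost in each. The line triCH1flox1 was CBP CH1/flox;p300 CH1/CH1 and triCH1flox2 was CBP CH1/CH1;p300 CH1/flox, where CH1 marks an allele with that domain deleted. Cre thus left only CH1-deleted alleles in the triCH1 lines. All cells were kept under normoxia. Vehicle cells received ethanol (EtOH) at both additions. TSA cells received trichostatin A, a histone deacetylase inhibitor, at 100 ng/ml and then ethanol. DP cells received ethanol and, after 30 min, the iron chelator dipyridyl at 100 µM, and TSA_DP cells received TSA and then DP. Cells were lysed for RNA 3 h after that second addition. Each group of class and treatment thus held 2 lines of different genotype with 1 array each. No label says that a line was cultured more than once. The p-values for treatment changes thus rest on how unevenly the lines of a class changed, pooled over both classes, and on array noise. Those for the classes averaged over the treatments rest on how far the lines of a class differed.

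Prolyl hydroxylases need iron and oxygen to mark the HIF alpha subunits for destruction, so that chelating iron lets HIF build up in normal oxygen. HIF binds short DNA elements with the core ACGTG or GCGTG near its target genes, and its activation domain can contact the CH1 domain of CBP and p300. Vegfa encodes the main growth factor for blood vessels. Vegfb and Vegfc encode its relatives, of which VEGF-C acts mainly on lymphatic vessels. Adm encodes adrenomedullin, a peptide that widens vessels and stabilises their walls. Angptl4 encodes a secreted inhibitor of lipoprotein lipase and is a target of both HIF and PPAR factors. Stc1 and Stc2 encode the stanniocalcins, secreted glycoproteins that were first known for calcium balance in fish and that inhibit pappalysins, the proteases that free insulin-like growth factors.

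The promoters show how differently the members are built around the start site. RefSeq windows (build GRCm38.p6) were at hand for 5 of the 7 members, and the 250 bases before the start were searched on both strands for the 5-base motifs ACGTG and GCGTG, which do not overlap each other in these windows. The windows of 3 members that DP raised and of Vegfb, which did not pass, are shown so that the motif can be set beside the response. Capitals mark the matches, and a match on the opposite strand reads CACGT or CACGC.
Adm, chr7:110627407-110627656, plus strand: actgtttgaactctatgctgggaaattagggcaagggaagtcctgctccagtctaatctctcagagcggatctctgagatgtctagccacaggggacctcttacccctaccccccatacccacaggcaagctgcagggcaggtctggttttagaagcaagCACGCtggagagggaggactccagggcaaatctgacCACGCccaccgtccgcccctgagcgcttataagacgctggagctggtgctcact
Stc2, chr11:31370062-31370311, minus strand: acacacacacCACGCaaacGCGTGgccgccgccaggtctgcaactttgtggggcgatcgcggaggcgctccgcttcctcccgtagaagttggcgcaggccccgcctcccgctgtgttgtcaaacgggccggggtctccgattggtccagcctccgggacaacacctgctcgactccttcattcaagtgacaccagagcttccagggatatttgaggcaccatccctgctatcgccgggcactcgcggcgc
Vegfa, chr17:46032378-46032627, minus strand: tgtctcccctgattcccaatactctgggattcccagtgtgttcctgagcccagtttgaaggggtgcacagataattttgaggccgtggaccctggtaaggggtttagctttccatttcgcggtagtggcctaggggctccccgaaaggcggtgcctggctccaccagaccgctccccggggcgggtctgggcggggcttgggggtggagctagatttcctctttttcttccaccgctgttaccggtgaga
Vegfb, chr19:6987652-6987901, minus strand: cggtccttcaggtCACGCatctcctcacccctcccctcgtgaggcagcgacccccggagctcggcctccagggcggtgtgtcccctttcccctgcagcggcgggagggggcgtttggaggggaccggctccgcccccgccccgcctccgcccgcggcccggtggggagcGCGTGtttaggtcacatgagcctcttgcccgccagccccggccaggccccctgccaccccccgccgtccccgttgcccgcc
Adm held GCGTG on the opposite strand with first bases at positions -90 and -54, counted from the start. Stc2 held it at -240 on the opposite strand and at -231 on its own. Vegfb, which had no called response to DP, held it at -237 and -81. The Vegfa window shown held neither motif, nor did that of Vegfc, while the window of a second Vegfa start further inside the gene held GCGTG at -218 and ACGTG at -211. Of all 32851 promoter windows of this length, 16.6% held ACGTG, 28.2% held GCGTG, 38.6% held either and 16.7% held 2 or more matches, so such letters are common. The element best known to serve Vegfa in hypoxia lies further upstream than this window.

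The arrays had median signals of 103.0 to 153.8, with 36.8% to 42.6% of probe sets at or above 200. The vehicle array of flox1 stood apart: its 3' to 5' signal ratio, a measure of RNA integrity, reached 2.59 (Gapdh) and 2.07 (actin), while the other 15 arrays had 0.907 to 1.26 (Gapdh) and 1.29 to 1.63 (actin). Changes from vehicle in control lines are also given without this array. By barcode the arrays fell into 2 series, of 4 and 12 arrays. The smaller held the TSA, DP and TSA_DP arrays of triCH1flox1 and the TSA_DP array of flox2. Every change from vehicle in triCH1flox1 thus also crosses the 2 series, and within that line the series and the treatment cannot be told apart. Across the lines, Xist (2109 to 3067 in triCH1 cells, 26.5 to 246 in control cells), which coats the inactive X, split exactly as the CH1 class did. CH1 and sex therefore cannot be told apart in any comparison between the classes, of changes as well as of levels. The median signal of Crebbp, the gene of CBP, was 978 in the lines with a conditional CBP allele and 1354 in the other pair, with overlapping ranges. That of Ep300 was 446 in the lines with a conditional p300 allele and 780 in the other pair, also with overlap. Whether these probe sets lie inside the deleted parts is unknown here, so they are a weak check of the labels. Fibroblast identity was borne out by 10 of 10 marker genes above the filter, with summed signals of 150667 to 196747. Of 10 endothelial markers 1 passed, Egfl7 at 201.5 to 449, and the sums were 512.4 to 1164. Pecam1 and Cdh5 stayed below 200 on every array, while Esam reached 230 at its highest. Of the macrophage, adipocyte and epithelial markers, 2 of 8, 1 of 4 and 2 of 6 passed, with summed signals of at most 1084, 1654 and 1796. They were Csf1r (78.6 to 375) and Adgre1 (81.4 to 289), Fabp4 (363 to 1487), and Epcam (199 to 1121) and Krt5 (39.7 to 306). Of the 18193 genes with a probe set of 1 symbol, 11481 passed the same filter. All 6 smooth muscle markers passed, with sums of 57275 to 87353. In none of these lists did a marker pass the test for DP in either class, where 1.54% and 0.575% of all genes passed.

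**Figure D1:**
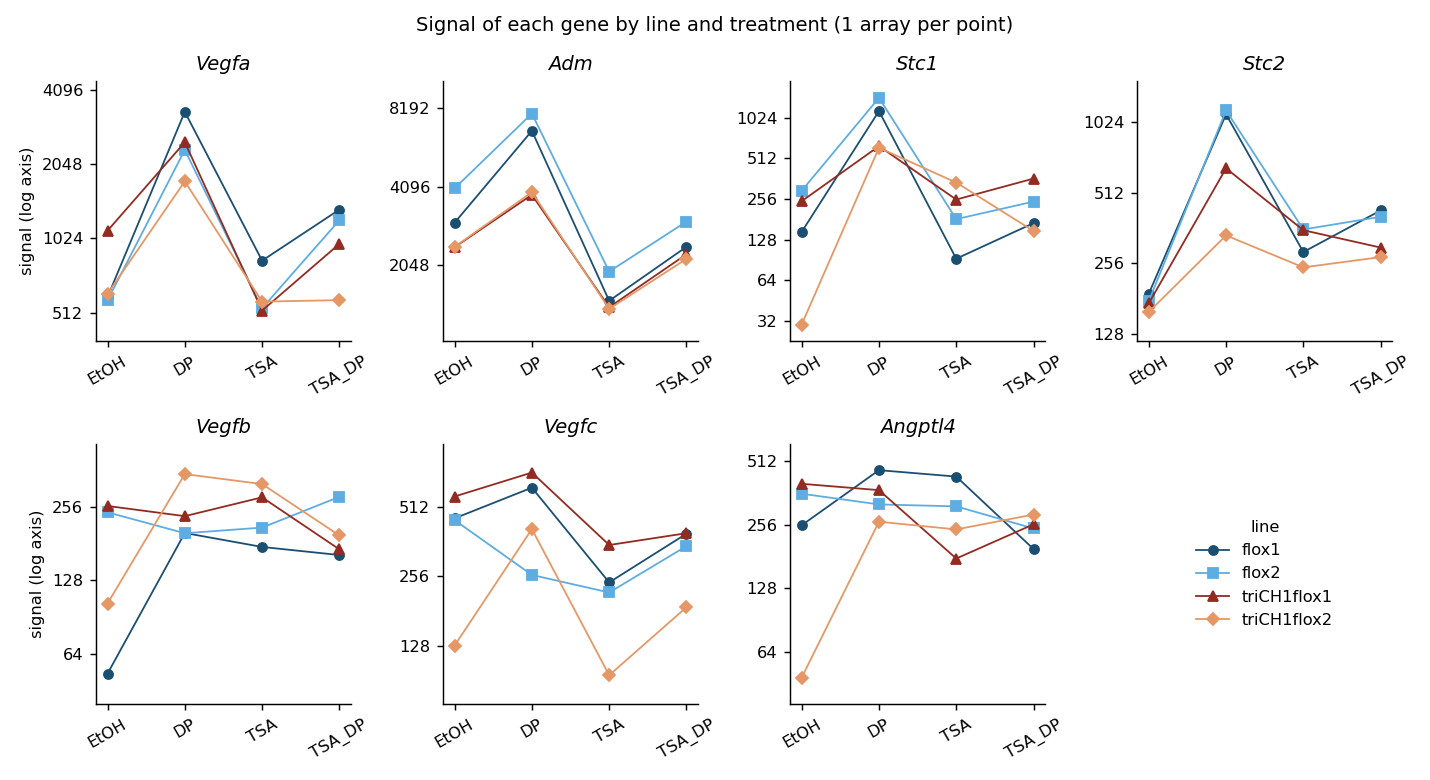
Signal of each gene on a log axis for the 4 treatments, by the probe set used for its gene, with 1 point per array and a line joining the 4 arrays of a cell line (blue, control lines; red and orange, triCH1 lines). Vegfa, Adm, Stc1 and Stc2 peak with DP in all 4 lines and are lower with TSA_DP than with DP, whereas Vegfb, Vegfc and Angptl4 show no shared peak.

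DP raised 4 of the 7 genes in the control lines, Vegfa, Adm, Stc1 and Stc2, by 2.07-fold to 5.16-fold, and 0 fell. Over all 11481 genes tested with limma, 1.21% rose with DP in these lines and 0.331% fell, 1.54% in all. A gene was tested where a probe set reached a signal of 200 on at least 2 arrays, and changes are on the log2(signal + 50) scale. The median change of the 7 genes was 1.05, against -0.04 over all genes tested. The signal with DP was above vehicle in all 4 lines for these 4 members, as for 7.46% of all genes. In RNA from whole cultures, more RNA per cell and more cells that express a gene cannot be told apart. Vegfb, Vegfc and Angptl4 did not pass.

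Vegfa signals were 592 and 574 in flox1 and flox2 with vehicle and 3346 and 2344 with DP. In triCH1flox1 and triCH1flox2 they were 1101 and 611 with vehicle and 2517 and 1747 with DP. The vehicle and DP signals of a class did not overlap, and triCH1flox1 had the highest vehicle signal of the 4 lines. The rise was 4.50-fold in the control lines (log2 change 2.17, SE 0.22, n = 2 lines, adjusted p = 8.98e-06) and 2.46-fold in the triCH1 lines (log2 change 1.30, SE 0.22, n = 2 lines, adjusted p = 0.00555). The second probe set of Vegfa was dimmer, with 37.5 to 137 in the 4 vehicle arrays and 309 to 627 with DP. It was higher with DP in 4 of 4 lines, by 1.29 to 2.95 on the log2 scale. Tested among all probe sets, it passed in control lines (adjusted p = 0.00916) and not in the triCH1 lines (adjusted p = 0.162). The control change by the brighter probe set was 1.99 without the flox1 vehicle array (adjusted p = 0.000546).

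Adm signals with vehicle were 2974 and 4030 in control lines and 2395 and 2402 in the triCH1 lines. With DP they were 6701 and 7807 in control lines and 3806 and 3894 in the triCH1 lines. By this probe set, the brighter of 2, both triCH1 lines were thus lower than both control lines before as well as after DP. The rise was 2.07-fold in the control lines (log2 change 1.05, SE 0.12, n = 2 lines, adjusted p = 6.69e-05) and 1.59-fold in the triCH1 lines (log2 change 0.67, SE 0.12, n = 2 lines, adjusted p = 0.0131). The other probe set of Adm had vehicle signals of 1116 and 2924 in flox1 and flox2 and 1401 and 1551 in triCH1flox1 and triCH1flox2. By it flox1 was thus below both triCH1 lines before DP. Its DP changes were larger, 2.27 and 1.38 in flox1 and flox2 and 0.74 and 0.98 in triCH1flox1 and triCH1flox2. Tested among all probe sets, its change was 1.83 in control lines and 0.86 in the triCH1 lines, and the latter did not pass (adjusted p = 0.0801). Leaving out the flox1 vehicle array gave 0.99 in control lines by the brighter probe set (adjusted p = 0.00228).

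Stc1 had signals of 146 and 295 in flox1 and flox2 with vehicle and 1152 and 1445 with DP. In triCH1flox1 and triCH1flox2 it had 247 and 29.9 with vehicle and 632 and 615 with DP. The DP signals were close within each class, whereas the vehicle signal of triCH1flox2 was far below the other 3, which gave that line the largest change, 3.06 on the log2 scale against 1.20 in triCH1flox1. The rise was 5.16-fold in the control lines (log2 change 2.37, SE 0.40, n = 2 lines, adjusted p = 0.00341) and 4.38-fold in the triCH1 lines (log2 change 2.13, SE 0.40, n = 2 lines, adjusted p = 0.0161). Without the flox1 vehicle array the change in the control lines was 2.20 and did not pass (adjusted p = 0.0773), and without triCH1flox2 the change in the triCH1 lines was 1.20 and did not pass (adjusted p = 0.623). With a pseudocount of 200 in place of 50, which weighs such low vehicle signals less, the changes were 1.85 and 1.36 and both passed. The second Stc1 probe set stayed at 5.30 to 71.0 on all 16 arrays, did not reach the filter and had DP changes of -0.92 to 0.0022 in the 4 lines.

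Stc2 showed the most even rise in the control lines. Its signals with vehicle were 190 and 177 in flox1 and flox2 and 173 and 159 in triCH1flox1 and triCH1flox2. With DP they were 1103 and 1145 in the control lines, and 649 and 337 in the triCH1 lines, so that the triCH1 lines lay just below the control lines before DP and well below them after it. The rise was 5.03-fold in the control lines (log2 change 2.33, SE 0.26, n = 2 lines, adjusted p = 3.42e-05) and 2.41-fold in the triCH1 lines (log2 change 1.27, SE 0.26, n = 2 lines, adjusted p = 0.0292). A second probe set went from 92.9 and 108 to 1440 and 1689 in the control lines and from 77.5 and 24.4 to 319 and 299 in the triCH1 lines. That probe set reached 200 on the 4 DP arrays alone and so passed the filter only through DP, which makes its change a description and no support. The third probe set had changes of 0.93 and 0.99 in control lines and of 0.28 and 2.08 in the triCH1 lines, and passed in neither class (adjusted p = 0.380 and 0.879). By the brightest probe set the control change without the flox1 vehicle array was 2.41 (adjusted p = 0.000696).

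The members that did not pass had low and uneven signals. Vegfb, read by 1 probe set, had vehicle signals of 52.9 to 259 and DP signals of 200.3 to 351. Its DP change was 1.29 and 1.39 in flox1 and triCH1flox2, the lines with the lowest vehicle signals, and -0.23 and -0.12 in flox2 and triCH1flox1. Fitted changes were 0.53 in the control lines (95% interval -0.36 to 1.41) and 0.64 in the triCH1 lines (-0.24 to 1.52). These intervals still allow rises of the size seen for Adm. The control change of Vegfb was -0.09 when the flox1 vehicle array was left out.

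Vegfc had vehicle signals of 456 and 448 in control lines and 567 and 128 in the triCH1 lines, and DP signals of 619 and 259, and 720.0 and 410, by its brightest probe set. The lines moved in both directions, with flox2 at -0.69 and triCH1flox2 at 1.37. The fitted changes were -0.14 (95% interval -0.82 to 0.53) in the control lines and 0.84 (0.17 to 1.52, adjusted p = 0.750) in the triCH1 lines. The other probe sets of Vegfc had changes of -0.37 and 0.42 in the control lines, and neither passed in either class. For Vegfc the control change without the flox1 vehicle array was -0.36.

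Angptl4 had vehicle signals of 255 and 359 in control lines and 400 and 48.5 in the triCH1 lines, and DP signals of 464 and 320, and 373 and 265. A rise was seen in flox1 and triCH1flox2 (0.75 and 1.68) and not in flox2 and triCH1flox1 (-0.15 and -0.09). The fitted changes were 0.30 (95% interval -0.66 to 1.27) and 0.79 (-0.17 to 1.76), and the former was -0.013 without the flox1 vehicle array. The second probe set of Angptl4 reached the filter on 0 arrays, with 16.0 to 177. For Vegfc and Angptl4, as for Stc1, triCH1flox2 had both the lowest vehicle signal and the largest change of the 4 lines.

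**Figure D2:**
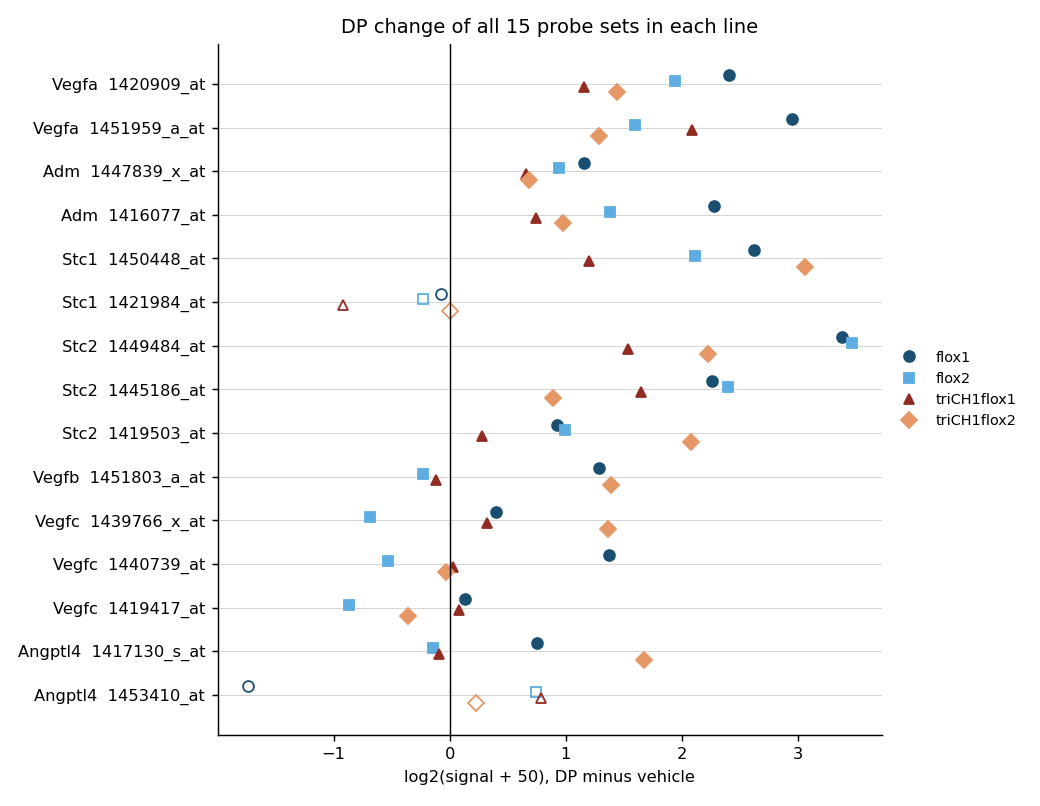
Change with DP on the log2(signal + 50) scale in each of the 4 lines for all 15 probe sets, named by gene and probe set, with open symbols for the 2 that did not reach the filter. The 8 filled rows of Vegfa, Adm, Stc1 and Stc2 lie right of 0 in every line, and those of Vegfb, Vegfc and Angptl4 lie on both sides.

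In the triCH1 lines the same 4 genes passed, by 1.59-fold to 4.38-fold, where 0.566% of all genes rose and 0.00871% fell, 0.575% in all. The median change of the 7 genes was 0.84, against -0.02 over all genes tested. Leaving out any 1 of the 4 lines, control lines included, left 0 or 1 of these calls past the threshold. The lowest value for a called gene in the triCH1 lines under any alternative was 0.64 for Adm, so that the direction was kept. In the control lines 2 to 4 genes passed when a line was left out, Vegfa and Stc2 among the 2 that remained without flox1, and 3 without the flox1 vehicle array.

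The next comparison asked whether the DP change differed between the classes. For Vegfa the triCH1 minus control difference in log2 change was -0.87 (95% interval -1.52 to -0.22), Stc2 by -1.06 (-1.84 to -0.29) and Adm by -0.38 (-0.75 to -0.01), while Stc1 had -0.24 (-1.45 to 0.97). The other passing probe sets differed in size and sign, with -0.97 for Adm (adjusted p = 0.769), -0.59 for Vegfa (adjusted p = 0.978), and 0.22 and -1.54 for Stc2 (adjusted p = 0.985 and 0.965), the last from the probe set that passed the filter through DP alone. Without the flox1 vehicle array the differences were -0.68 for Vegfa, -1.15 for Stc2 and -0.31 for Adm, and without triCH1flox2 that of Stc2 was -0.68. None of these differences passed (adjusted p = 0.978 for Vegfa, Stc2 and Adm, adjusted p = 0.984 for Stc1). With limma, 0 of the 7 genes and 0.0261% of all genes passed here. At an unadjusted p under 0.05, 3 of the 7 were lower, Adm, Stc2 and Vegfa, and 1 was higher, Vegfc (0.99, 95% interval 0.03 to 1.94), where 4.86% of all genes reached that level. The intervals allow a rise of Vegfa that is smaller by up to 1.52 on the log2 scale, and a Stc1 rise smaller by 1.45 or larger by 0.97.

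The DP changes of Vegfa, Adm and Stc2 were smaller in both triCH1 lines than in both control lines, a pattern that 12.8% of all genes showed. It did not hold in the second Vegfa probe set, where triCH1flox1 (2.09) was above flox2 (1.60), nor in the third Stc2 probe set, where triCH1flox2 (2.08) was above both control lines (0.93 and 0.99). By signal with DP, Adm, Stc1 and Stc2 were lower in both triCH1 lines, as were 18.5% of all genes. With vehicle, Adm and Stc2 were lower in both triCH1 lines by the probe set used, as were 18.6% of all genes. For Adm this did not hold in the other probe set, where flox1 (1116) was below triCH1flox1 (1401) and triCH1flox2 (1551). The Vegfa signals with DP overlapped between the classes. The flox1 vehicle array, with its high 3' to 5' ratio, enters the control change. In flox2, which does not use it, the changes of Vegfa, Adm and Stc2 were 1.94, 0.95 and 2.40, against 2.40, 1.16 and 2.26 in flox1.

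**Figure D3:**
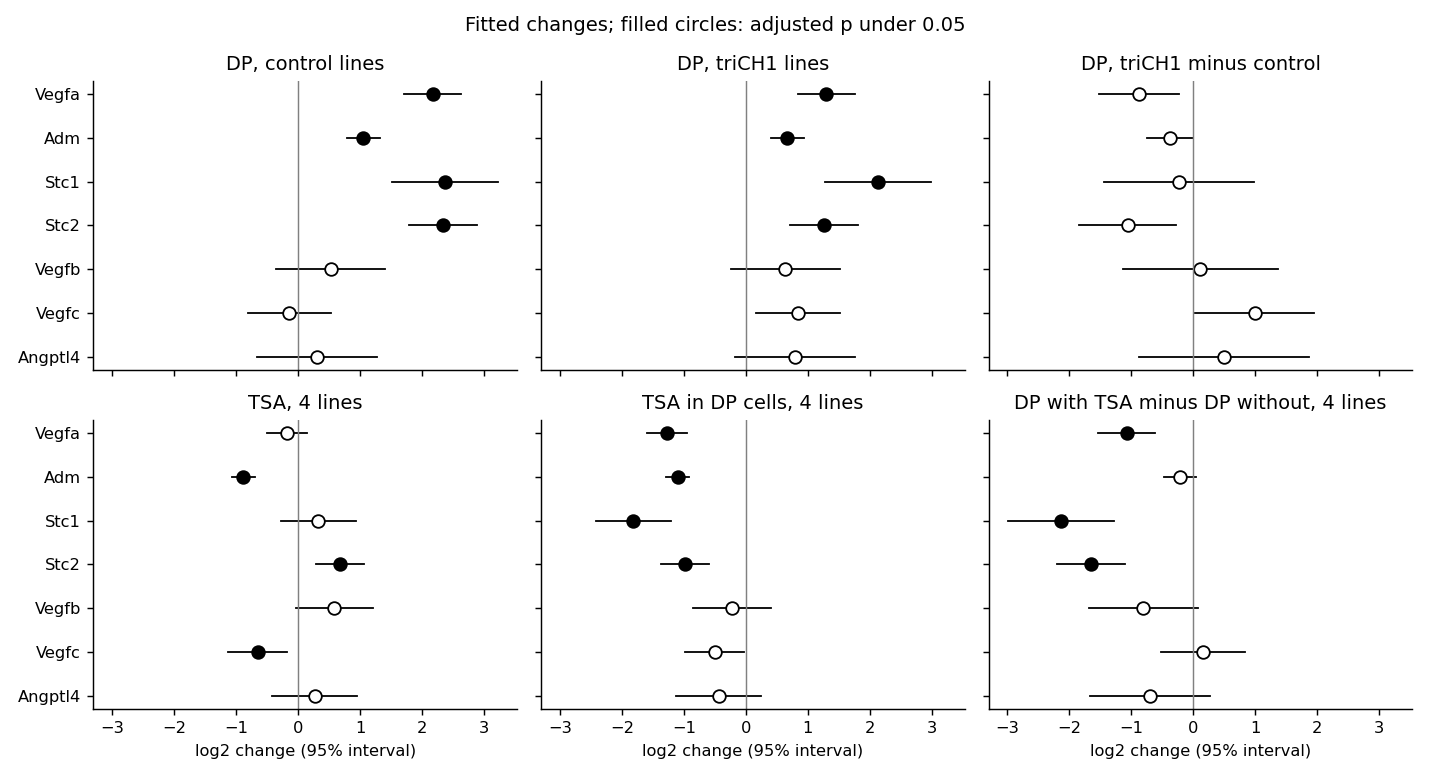
Fitted log2 change of each gene in 6 comparisons, with its 95% interval and filled circles at an adjusted p under 0.05. The same 4 genes are filled for DP in both classes and for TSA in DP-treated cells, none is filled for the difference between classes, and 3 are filled for the difference between the DP change with and without TSA.

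TSA on its own moved the members in different directions. Over the 4 lines, Adm fell 1.84-fold, Vegfc fell 1.57-fold and Stc2 rose 1.59-fold, while Vegfa, Vegfb, Angptl4 and Stc1 did not pass. TSA changed much of the transcriptome at this time, with 15.7% of all genes rising and 12.4% falling, 28.1% in all, against which the 3 of 7 members must be read. Adm signals with TSA were 1491 and 1930 in control lines and 1408 and 1389 in the triCH1 lines, below the vehicle signal of every line. Its change was -0.88 (SE 0.09, n = 4 lines, adjusted p = 2.06e-06), lower in 4 of 4 lines, and its other probe set fell by 0.60 (adjusted p = 0.00453). Of the other members, Stc2 had signals of 286, 357, 354 and 246 in flox1, flox2, triCH1flox1 and triCH1flox2 with TSA, above vehicle in 4 of 4 lines as for 22.5% of all genes (0.67, SE 0.18, adjusted p = 0.0112). The other 2 probe sets of Stc2 had changes of -0.07 and -0.34 with TSA, so this rise rests on 1 of 3 probe sets, and with the mean of all 3 the change was 0.09 (adjusted p = 0.806).

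Vegfc had TSA signals of 241 and 218 in control lines and 349 and 95.3 in the triCH1 lines, lower than vehicle in 4 of 4 lines as for 18.5% of all genes (-0.65, SE 0.23, adjusted p = 0.0390). Its other probe sets had changes of -0.26 and 0.02, and with the mean of all 3 the change was -0.30 (adjusted p = 0.331). The call of Vegfc held under 5 of the 15 alternatives, with adjusted p from 0.0334 to 0.331, and was lost with any 1 line left out. Without the flox1 vehicle array the TSA changes were -0.76 for Vegfc (adjusted p = 0.0413), -0.92 for Adm and 0.71 for Stc2. Vegfa had TSA signals of 833 and 534 in control lines and 522 and 568 in the triCH1 lines, with a fitted change of -0.19 (95% interval -0.51 to 0.14). Its second probe set had a change of 0.67 with the opposite sign, which did not pass either (adjusted p = 0.121). Stc1 had TSA signals of 92.2 and 181 in control lines and 254 and 339 in the triCH1 lines. Its change was 2.28 in triCH1flox2, whose vehicle signal was 29.9, and -0.57 to 0.03 in the other lines. With flox2 left out, Adm alone passed, and with triCH1flox1 left out, Adm, Angptl4 (0.91) and Stc1 (0.88) passed while Stc2 and Vegfc did not. Of the 10 fibroblast markers 2 fell with TSA and 0 rose, and their part in these results was not tested. The TSA change differed between the classes for 0 of the 7 genes and for 0 of all genes with limma. At an unadjusted p under 0.05, 2 of the 7 differed, Stc1 (1.68) and Vegfa (-0.73), where 5.72% of all genes reached that level. These sizes turned on single lines: Stc1 was 0.55 without triCH1flox2 and 2.80 without triCH1flox1, and Vegfa was -0.28 without triCH1flox1, -0.46 without flox1, -0.55 without the flox1 vehicle array alone and -1.19 without triCH1flox2.

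In DP-treated cells TSA lowered all 4 genes that DP had raised. The DP arrays that gave the rise enter this comparison too, so the match between the lists is not separate evidence. Stc1 fell 3.52-fold (log2 change -1.82, SE 0.29, adjusted p = 0.000151), Vegfa 2.40-fold (-1.26, SE 0.15, adjusted p = 1.27e-05), Adm 2.15-fold (-1.10, SE 0.09, adjusted p = 2.08e-07) and Stc2 1.97-fold (-0.98, SE 0.18, adjusted p = 0.000662). Each was lower in 4 of 4 lines, a pattern that 20.7% of all genes showed, and 12.2% of all genes passed in this direction, against 17.7% in the other. The median of the 7 genes was -0.98, against 0.02 over all genes tested. By the other probe sets Vegfa fell by 1.28, Adm by 1.16 and Stc2 by 1.16 on the log2 scale (adjusted p = 0.00482, 1.81e-05 and 0.0149), leaving aside the Stc2 probe set that passed the filter through DP alone. All 4 passed under each of the 15 alternatives, those that left out a line included. Vegfb, Vegfc and Angptl4 had changes of -0.22, -0.50 and -0.44 that did not pass.

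The signals with TSA_DP show where the genes ended up. Vegfa was at 1342 and 1215 in the control lines, above their vehicle signals, and at 974 and 575 in the triCH1 lines, below theirs. Adm was at 2403 and 3004 in control lines and 2250 and 2161 in the triCH1 lines, below the vehicle signal of its own line in 4 of 4 lines. Stc2 ended at 430 and 404 in control lines and 299 and 272 in the triCH1 lines, above vehicle in each. Stc1 ended at 170 and 245 in control lines and at 363 and 148 in the triCH1 lines, below its vehicle signal in flox2 and above it in the other lines. These end levels are those of the probe set used for each gene, and others differed. The second Adm probe set was above vehicle in flox1 and triCH1flox2, the second Vegfa probe set was above it in all lines but flox2, and the third Stc2 probe set was above it in 2 of 4 lines.

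Measured against TSA alone, DP raised none of the members past the threshold in either class, where 0.113% of all genes rose in control lines and 0.0610% in the triCH1 lines. Adm came nearest, with changes of 0.65 in the control lines (95% interval 0.39 to 0.91, adjusted p = 0.0551) and 0.64 in the triCH1 lines (0.38 to 0.90, adjusted p = 0.0950). By the probe set used for each gene, signals with TSA_DP were above those with TSA in all 4 lines for Adm, Vegfa and Vegfc, as for 7.46% of all genes. This did not hold across probe sets. Another Vegfc probe set was lower with TSA_DP in 4 of 4 lines (-0.89 to -0.02), and the remaining one was up in 2 and down in 2. The second Vegfa probe set was lower in flox2 (-0.52). The 4 line values of Adm lay between 0.62 and 0.67 by the brighter probe set. By the other Adm probe set they were 1.09 and 0.94 in flox1 and flox2 and 0.44 and 0.67 in triCH1flox1 and triCH1flox2, less even and lower in both triCH1 lines. Its call in the control lines turned on the setting, since it passed without the flox1 vehicle array, for example (adjusted p = 0.0351). Vegfa had 0.89 in the control lines (95% interval 0.43 to 1.34) and 0.43 in the triCH1 lines (-0.03 to 0.89). At an unadjusted p under 0.05 with limma, 2 members rose in the control lines, Adm and Vegfa, and 1 in the triCH1 lines, Adm, where 4.22% and 5.80% of all genes reached that level.

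**Figure D4:**
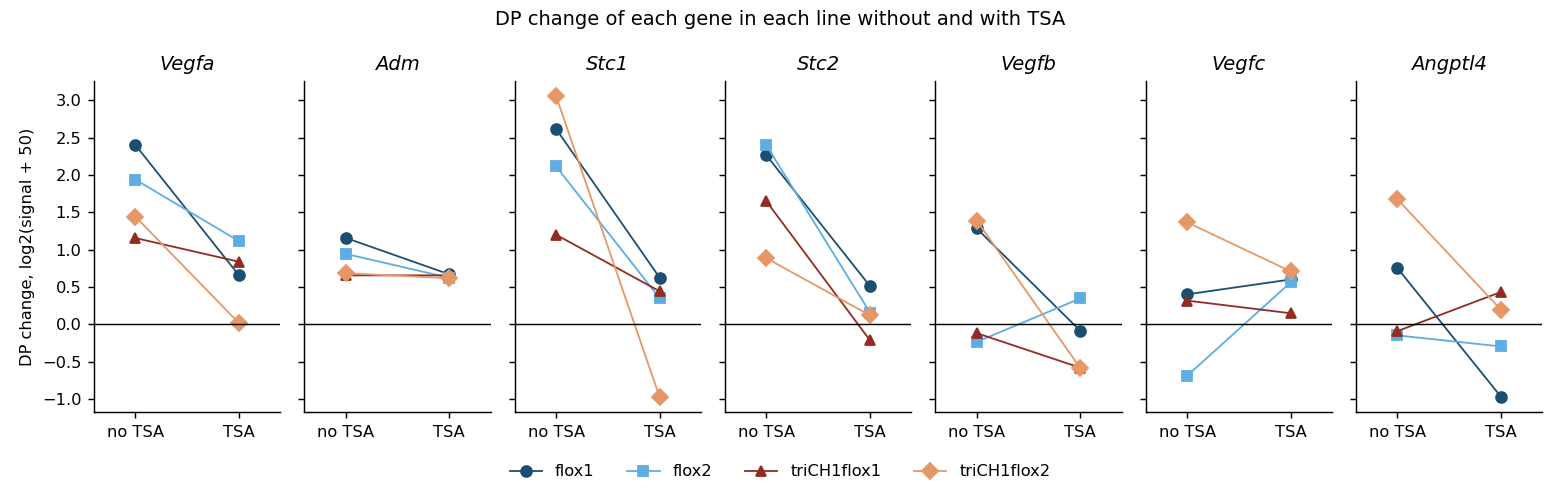
DP change of each gene on the log2(signal + 50) scale in cells without TSA (DP minus vehicle) and with TSA (TSA_DP minus TSA), with 1 line per cell line. Vegfa, Stc1 and Stc2 drop in all 4 lines, Adm lies between 0.62 and 0.67 with TSA by the probe set plotted, and the other genes cross.

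A direct test compared the DP change with and without TSA over the 4 lines. It was smaller with TSA for Stc1 (difference -2.14, SE 0.40, n = 4 lines, adjusted p = 0.0204), Stc2 (-1.65, SE 0.26, adjusted p = 0.00443) and Vegfa (-1.08, SE 0.22, adjusted p = 0.0327), each in 4 of 4 lines. Of all genes 0.401% passed in this direction and 0 in the other, and 6.51% had a smaller DP change with TSA in all 4 lines. Adm had a difference of -0.22 (95% interval -0.48 to 0.04), which did not pass. By the probe set used, its fall with TSA in DP-treated cells (-1.10) stood beside a fall of similar size with TSA alone (-0.88). By its other probe set these changes were less alike, -1.16 and -0.60. The difference by that probe set was -0.56 (95% interval -0.96 to -0.15). Stc1, Vegfa and Stc2 had TSA changes of 0.32, -0.19 and 0.67 without DP, against -1.82, -1.26 and -0.98 with DP, by the probe sets used. These contrasts share the DP and TSA arrays with the comparisons above, so they are not separate evidence. The other probe sets had differences of -1.94 for Vegfa, -0.56 for Adm and -1.08 for Stc2, of which none passed (adjusted p = 0.0787, 0.698 and 0.846). The call of Vegfa was lost when every probe set was tested on its own (adjusted p = 0.0599). Without the flox1 vehicle array the difference was -0.99 for Vegfa (adjusted p = 0.0925) and -2.05 for Stc1 (adjusted p = 0.0593), and neither passed, while Stc2 did (-1.70, adjusted p = 0.00760). Without triCH1flox2, whose vehicle signal of Stc1 was 29.9, the Stc1 difference was -1.32 and did not pass (adjusted p = 0.426). With a line left out, 0 to 2 of the 3 calls remained, 0 of them without flox1 or without flox2.

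Averaged over the treatments, 0 of the 7 genes differed between triCH1 and control lines with limma, where 0.157% of all genes did, 0.0174% higher and 0.139% lower. At an unadjusted p under 0.05 there were 2, both lower in the triCH1 lines, Adm (-0.49, 95% interval -0.79 to -0.19, adjusted p = 0.262) and Stc2 (-0.46, -0.88 to -0.05, adjusted p = 0.433), where 10.6% of all genes reached that level. With the vehicle arrays of every line left out, so that the line means held the other treatments alone, the differences were -0.48 for Adm and -0.58 for Stc2. Sex cannot be told apart from CH1 here either.

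The members were also set beside every other gene tested, by the root mean square difference in log2 signal over the 16 arrays after each line's mean was taken out. This likeness is a description of the same arrays and carries no test. For Vegfa, whose own root mean square spread was 0.80, the nearest genes were the histone demethylase gene Kdm3a (0.28), Gdap10 (0.29) and Nampt, which makes an NAD precursor (0.30). Stc2 (spread 0.69) was nearest to the glucose transporter gene Slc2a1 (0.26), Gdap10 (0.29) and Fam162a (0.29). Stc1 (spread 1.01) was nearest to the glycogen synthase gene Gys1 (0.50), Ak4 (0.50) and Ccng2 (0.51), at larger distances. Kdm3a, the nearest to Vegfa, had mean signals of 557 with vehicle and 3250 with DP in control lines and of 718 and 1847 in the triCH1 lines.

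Adm (spread 0.64) had other neighbours, Lims2 (0.20), Pnrc1 (0.21) and Rnf19a (0.21). Like Adm, their mean signals were above vehicle with DP and below it with TSA in both classes. Lims2 had mean signals of 663 with vehicle, 1156 with DP and 291 with TSA in the control lines. For Vegfb, Vegfc and Angptl4, with spreads of 0.40, 0.46 and 0.48, the nearest genes were Lca5 (0.20), Rbbp6 (0.22) and Btbd3 (0.27). Within the set, Vegfa lay nearest to Adm (0.45) and Stc2 (0.47), and Stc1 lay 0.61 from both Vegfa and Stc2. The closest pair of members was Vegfb and Angptl4 (0.42), and Adm lay about as near to Vegfc (0.448) as to Vegfa (0.454).

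Other genes of the same systems, from lists that named their receptors, partners and opponents, moved little with DP. Of 8 measured VEGF ligands and receptors 0 passed with DP in either class (median changes 0.02 and -0.05). The receptor gene Kdr stayed at 15.1 to 184 and was not tested, whereas the co-receptor gene Nrp1 was at 4804 to 9376. Of 9 measured genes of the adrenomedullin system 1 rose in the control lines, Adm2, which encodes a related peptide (5.15-fold, adjusted p = 0.0354), and 0 in the triCH1 lines (medians 0.08 and 0.13). Adm2 signals ran from 10.1 to 353, so that fold depends on the pseudocount. Of 5 measured genes of the angiopoietin system and 7 of the stanniocalcin and pappalysin system 0 passed with DP in either class (medians 0.06 and -0.12, and -0.10 and -0.13).

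Of 13 other secreted HIF targets 1 rose in the control lines, Hbegf, an EGF family ligand (1.90-fold, adjusted p = 0.000201), and 0 in the triCH1 lines (medians -0.07 and -0.04). Of 10 angiogenesis inhibitors 1 fell in the control lines, the semaphorin gene Sema3f (1.83-fold, adjusted p = 0.0359), and 0 passed in the triCH1 lines (medians -0.04 and -0.01). In DP-treated cells TSA lowered Hbegf 1.73-fold (adjusted p = 4.16e-06) and raised Sema3f 1.59-fold (adjusted p = 0.00170). It also lowered Adm2 2.07-fold (adjusted p = 0.0455) and Nrp1 1.32-fold (adjusted p = 0.00435), and raised Calcrl, the adrenomedullin receptor gene, 2.30-fold (adjusted p = 0.0303). Counts with TSA in DP-treated cells, where 17.7% of all genes rose and 12.2% fell, were 2 up and 1 down in the VEGF list, 2 up and 1 down in the adrenomedullin list, 0 and 0 in the angiopoietin list, 0 up and 1 down (Pappa) in the stanniocalcin list, 1 up and 3 down among other secreted targets, and 2 up and 1 down among the inhibitors.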

How the data were processed

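Total RNA was hybridised to 16 Affymetrix mouse arrays of 45101 probe sets. Per the labels' descriptions, the deposited intensity values are signals from Affymetrix's statistical algorithm, which the authors scaled to a target of 500, which the 2% trimmed means of all arrays met. The software version is not given in the sources used here. Each column was matched to its sample by accession, with 0 columns left over. Symbols came from the platform table: 34945 probe sets had 1 symbol, 932 several and 9160 none, beside 64 controls.

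Values were log2(signal + 50). Probe sets with a signal of at least 200 on at least 2 arrays were kept, and the one with the highest mean stood for its gene (11481 genes). All 7 members and 13 of their 15 probe sets passed. limma 3.58.1 (R 4.3.3) fitted the models: 8 group means, a line term within each class and a variance trend (6 residual and 10.5 prior degrees of freedom). The classes were compared on 4 line means. P-values were adjusted by Benjamini and Hochberg over all genes, with a threshold of 0.05. Line deviations correlated at 0.161 to 0.326 (control) and 0.0755 to 0.318 (triCH1) over 6 array pairs each, and the pairing rests on the labels, which give 1 line for the 4 treatments. Named genes were the members, called list genes and the 3 nearest genes per member. Members and the 14 gene and marker lists were chosen with earlier results of these data known. The steps were tested on simulated data. Figures used Python 3.11.15 and matplotlib 3.10.9.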

Additional observations from a re-analysis of the deposited data

Results flagged for a closer look

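Of 3 genes the DP change differed between cells with and without TSA by a direct test over the 4 lines. The differences were -2.14 for Stc1, -1.65 for Stc2 and -1.08 for Vegfa, all smaller with TSA (limma, adjusted p = 0.0204, 0.00443 and 0.0327), in 4 of 4 lines each. Of all genes 0.401% passed in this direction. With a line left out the differences ran from -2.96 to -1.32, from -1.93 to -1.38 and from -1.36 to -0.80. The calls depended on single lines and on the flox1 vehicle array, as given above.

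Angptl4 moved in opposite directions in the classes when DP was added to TSA-treated cells. It had changes of -0.97 and -0.29 in flox1 and flox2 and of 0.44 and 0.20 in triCH1flox1 and triCH1flox2, a difference in class means of 0.95. That difference was not tested, and neither class passed on its own. All 7 members were screened for such a split and Angptl4 alone showed it, while the share of all genes that show it was not counted. Its signals on the TSA and TSA_DP arrays were low, at 177 to 433. Groups of 2 lines are too small to ask whether 1 sample lies apart.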

How the results depend on the processing

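The number of members past the threshold was recomputed under 15 alternatives. It stayed at 4 for TSA in DP-treated cells and at 0 for the difference in DP change, the difference in TSA change, DP with TSA in the triCH1 lines and, under 14 alternatives, the comparison of the classes. For DP in the control lines it was 2 to 4 with a line left out (4 as reported). For DP in the triCH1 lines (4) it was 0 to 1 with a line left out, 2 with no filter, 2 with a term for the array series, 0 with no replicate block for the line and 0 with no variance trend. For DP with TSA in the control lines (0) it was 1 with no filter, with a filter of 500, with the mean of all passing probe sets or with the flox1 vehicle array left out, and 0 with a line left out. For the DP change with against without TSA (3) it was 1 with no replicate block, with no variance trend or with the flox1 vehicle array left out, and 0 to 2 with a line left out. For TSA (3) it was 1 with the mean of all passing probe sets and 1 to 3 with a line left out, and it was 2 with no filter, no replicate block, no variance trend, an array series term or every probe set on its own, Vegfc being lost in each. Smaller losses were seen too. The count for the DP change with against without TSA was 2 with a pseudocount of 16 or no filter. It was also 2 with the mean of all passing probe sets or every probe set on its own. That for DP in the control lines was 3 with no variance trend. When a line was dropped, the lone line of its class was assumed to vary like the others. In the comparison of the classes, the alternative without the flox1 vehicle array left out the vehicle arrays of every line. The cause of these shifts was not tested. Of the 270 alternative values of the 18 called changes, 62 lost the call and 0 changed sign. Of 753 values of changes that had not passed, 44 changed sign and 6 passed.

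Over all genes, the counts past the threshold ran from 60 to 241 for DP in the control lines (177 as reported), 17 to 83 in the triCH1 lines (66), 0 to 4 for the difference (3), 5 to 19 and 1 to 10 for DP with TSA in the control and triCH1 lines (14 and 7), 13 to 51 for the DP change with against without TSA (46), 2 to 356 between the classes (18), 0 to 6 for the difference in TSA change (0), 2096 to 4409 for TSA (3227) and 2261 to 4686 for TSA in DP-treated cells (3428). Signals of Stc1, Stc2, Vegfb and Angptl4 under 200 limit the precision of their folds.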

Other observations

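Targets of 2 other factors that also act on members were read from lists. Angptl4 is a target of PPAR factors. Of 8 measured PPAR targets, 0 passed with DP in either class, where 1.54% and 0.575% of all genes did. Their medians were -0.11 and -0.03, against -0.04 and -0.02 over all genes tested. With TSA over the 4 lines, 3 of the 8 rose and 0 fell, with a median of 0.39 against 0.03 over all genes, of which 15.7% rose and 12.4% fell. These were Cpt1a, which brings fatty acids into mitochondria (1.81-fold, adjusted p = 0.000272), Acadm, a dehydrogenase of fatty acid oxidation (1.60-fold, adjusted p = 0.000407), and Acaa2, a thiolase of the same pathway (1.43-fold, adjusted p = 0.00142). Angptl4 itself had a TSA change of 0.27 that did not pass. In DP-treated cells TSA raised 4 of the 8 and lowered 0, where 17.7% of all genes rose and 12.2% fell.

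Stc2 is known to respond to the stress factor ATF4 as well as to HIF. Of 11 measured ATF4 targets, 1 rose with DP in each class, Vldlr, a lipoprotein receptor that is also known as a hypoxia target (2.73-fold in the control lines, adjusted p = 0.000350, and 3.20-fold in the triCH1 lines, adjusted p = 0.000195). The medians were 0.15 and 0.06. Asns and Chac1, further targets in the list, did not pass with DP. With TSA over the 4 lines 3 of the 11 rose and 0 fell, against 15.7% and 12.4% of all genes, among them Atf3 (2.57-fold, adjusted p = 0.000181). In DP-treated cells with TSA 3 of the 11 rose and 2 fell, with a median of 0.04, against 17.7% and 12.2% of all genes. Atf3 rose 2.04-fold (adjusted p = 0.00174), Cebpb 1.56-fold (adjusted p = 0.00384) and Ddit3 1.48-fold (adjusted p = 0.00388). Vldlr fell 2.30-fold (adjusted p = 9.67e-06) and Trib3, a pseudokinase, 2.32-fold (adjusted p = 0.00109).

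TSA alone changed several genes of the vessel-related lists over the 4 lines. Adamts1, a protease with antiangiogenic domains, fell 1.90-fold (adjusted p = 0.000782) and Timp3, an inhibitor of metalloproteases that also blocks VEGF binding, rose 1.87-fold (adjusted p = 0.000182). The VEGF co-receptor genes Nrp1 and Nrp2 fell 1.22-fold and 1.35-fold (adjusted p = 0.0331 and 0.0339). In the same comparison, where 15.7% of all genes rose and 12.4% fell, counts up and down were 0 and 2 in the VEGF list, 0 and 0 in the adrenomedullin list, 1 and 0 in the angiopoietin list, 1 and 1 in the stanniocalcin list, 0 and 2 among other secreted targets and 1 and 2 among the inhibitors.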
